A study of Mus musculus with 6 samples.

Results

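The 33 genes described here encode the enzymes and regulators with which a cell makes cholesterol and fatty acids. They were taken by symbol from a written list, with earlier results of these data known, and they are 33 of the 26231 genes measured by RNA sequencing in immortalized mouse embryonic fibroblasts (MEFs). The cells came from FVB embryos of about 14 days by the sample labels, whose Nf2 alleles were flanked by loxP sites. Nf2 encodes Merlin, a membrane-linked scaffold protein and tumour suppressor. All cells were immortalized with a lentivirus carrying SV40 large T antigen. The control line then received a lentivirus expressing GFP from a CMV promoter and is labelled MEF WT, and the other line received a lentivirus expressing Cre recombinase and GFP from the same promoter and is labelled MEF Nf2 KO. Both lines were grown in 10% fetal bovine serum and kept without serum for 24 h before RNA was taken. Each genotype is a single line with 3 libraries, marked A, B and 2018 in the labels, and nothing says that the libraries of a line came from separate cultures. The p-values below therefore measure the spread between these libraries, which may be technical.

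Cholesterol is built from acetyl-CoA. The early mevalonate steps give farnesyl diphosphate, which is then joined to make squalene, closed into lanosterol and trimmed to cholesterol. Fatty acids are built from the same precursor by acetyl-CoA carboxylase and fatty acid synthase and are then lengthened and desaturated. Both routes are controlled by the SREBP transcription factors, which are held in the endoplasmic reticulum by the escort protein SCAP and the INSIG anchor proteins while sterols are plentiful. When sterols run low, SCAP carries SREBP to the Golgi, where it is cut, and the released part enters the nucleus and turns on the genes of synthesis and uptake. In cultured fibroblasts the lipoproteins in serum are a main source of cholesterol, and their removal is a classical way to switch the pathway on.

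Levels are given as RPKM, reads scaled to exon length and to library size, so that they can be compared between genes as well as between libraries. All 33 genes were among the 11067 tested genes, kept where 3 or more libraries reached 1 RPKM. The depth inferred from the values was 13397319 to 19201430 reads in the A and B libraries and 60932792 and 72728117 reads in the 2018 libraries. The least covered value of any of the 33 genes rested on about 174 reads. Nf2 itself was at 14.3, 13.7 and 13.1 RPKM in MEF WT A, B and 2018. Under the MEF Nf2 KO label it was at 15.4, 12.9 and 13.9 RPKM. The targeted transcript was thus not lower under the knockout label. Values for a whole gene do not show whether a deleted exon was lost. Of the fibroblast markers, Vim was at 536 RPKM or more and Col1a1 at 265 RPKM or more in every library. Pdgfra and Dcn, further fibroblast markers, were low in the line labelled MEF Nf2 KO, at 0.657 to 1.42 RPKM and 0.0266 to 0.133 RPKM, against 5.22 to 12.3 RPKM and 1.60 to 4.01 RPKM in MEF WT. In these bulk samples, fewer cells of a type and less RNA per cell cannot be told apart. The first principal component, with 50.3% of the variance, separated the B libraries of both lines from the other libraries, and the second, with 32.7%, separated the lines. The B libraries thus stood apart in both lines, and the comparison of the lines is given with and without them below.

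The promoters of 4 of the 33 genes are printed to show the control region of the 3 genes with the largest B differences below among those with a promoter in the table used, beside that of Scap, whose B difference was 0.00. They come from RefSeq (GRCm38.p6, the build also called mm10) and run 5′ to 3′ on the gene's own strand, up to the base before the annotated start, except for Insig1, which stops 50 bases before it. The windows are chr5:28071162-28071362 on the plus strand for Insig1, chr13:119690101-119690350 on the plus strand for Hmgcs1, chr8:122443423-122443672 on the minus strand for Mvd and chr9:110333038-110333287 on the plus strand for Scap. Capitals mark 3 motifs on either strand. These are the sterol regulatory element TCACNCCAC, the CCAAT box (ATTGG or CCAAT) and the GC box (GGGCGG or CCGCCC).
Insig1: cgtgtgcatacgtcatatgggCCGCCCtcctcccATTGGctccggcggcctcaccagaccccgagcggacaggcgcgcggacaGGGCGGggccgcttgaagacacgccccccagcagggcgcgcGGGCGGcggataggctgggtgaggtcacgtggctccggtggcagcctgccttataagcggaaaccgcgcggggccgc
Hmgcs1: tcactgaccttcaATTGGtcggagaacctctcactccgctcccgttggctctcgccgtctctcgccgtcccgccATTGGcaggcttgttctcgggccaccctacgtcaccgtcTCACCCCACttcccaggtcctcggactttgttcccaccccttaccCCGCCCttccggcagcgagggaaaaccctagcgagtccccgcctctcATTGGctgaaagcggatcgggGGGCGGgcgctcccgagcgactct
Mvd: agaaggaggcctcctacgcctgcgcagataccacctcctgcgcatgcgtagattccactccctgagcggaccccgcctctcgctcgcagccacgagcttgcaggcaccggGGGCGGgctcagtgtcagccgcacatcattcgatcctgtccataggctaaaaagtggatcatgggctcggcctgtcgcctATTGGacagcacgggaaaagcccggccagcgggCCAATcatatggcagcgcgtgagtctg
Scap: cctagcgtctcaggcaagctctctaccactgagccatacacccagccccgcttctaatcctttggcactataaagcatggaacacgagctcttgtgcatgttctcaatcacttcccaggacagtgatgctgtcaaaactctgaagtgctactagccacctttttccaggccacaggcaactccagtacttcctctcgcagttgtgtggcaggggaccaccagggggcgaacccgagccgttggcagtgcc

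The Hmgcs1 window held the sterol regulatory element TCACCCCAC from position -137 to -129, counted back from the start, with 3 CCAAT boxes and 2 GC boxes. The Insig1 window held 1 CCAAT box and 3 GC boxes, and the Mvd window held 2 CCAAT boxes and 1 GC box. No motif of these was found in the printed Scap window, which lies at the first of 2 annotated starts. The window at the other start held a GC box, and Scap is counted with the genes that have it. Promoters of 26 of the 33 genes were in the RefSeq table. Those of Fdps, Fdft1, Sqle, Stard4, Scd1, Scd2 and Fads1 were not. A CCAAT box lay within 250 bases of the start in 20 of the 26 (76.9%), against 41.4% of the 8437 tested genes with a promoter and 33.8% of all 32851 promoters in the table. A GC box was found in 22 of the 26 (84.6%), against 67.4% and 32.7%. The sterol regulatory element in this strict spelling was found in 1 of the 26 (3.85%), against 1.24% and 1.1%, and the E-box TCACGTGA in 0 of the 26, against 2.01% and 0.8%. None of the 4 motifs contains another. A match here is a description of the letters in the window and says nothing of whether a factor was bound.

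The study's own comparison, of the libraries labelled MEF Nf2 KO with MEF WT, showed no difference past the test in any of the 33 genes. Each gene was tested with limma on log2(RPKM + 1), a scale that understates the change of low genes, with a threshold of 0.05 on p-values adjusted over all 11067 genes by the Benjamini-Hochberg method. At that threshold 117 genes, or 1.06%, were called between the lines, and 0 of the 33. None of the 33 had an unadjusted p under 0.05 either, and voom, limma's method for counts, also called 0 on reads worked back from the RPKM. The log2 differences ran from -0.39 to 0.24 with a median of 0.08, against -0.008 over all tested genes, with 23 above 0 and 10 below. The levels of the lines overlapped in all 33 genes, while the lines did not overlap in 15.1% of tested genes. In 32 of the 33, both B libraries lay below the other 4, which forces an overlap. The count therefore says nothing of the lines. The 95% intervals were wide, reaching from -1.74 to 2.18 over the 33 genes, so that these data do not show the lines to be alike. They come from the fit without a term for the mark, so the difference of the B libraries adds to their width. Intervals of a fit with the marks paired are not given here. When same-numbered libraries were paired as a block, 833 genes (7.53%) were called between the lines and still 0 of the 33, although 3 then had an unadjusted p under 0.05. These were Insig2 (0.0118), Scd2 (0.0314) and Acat2 (0.0441). The lowest adjusted p was 0.712 without the block and 0.096 with it, both for Insig2. Without the B libraries of both lines 0 of the 33 were called and 2 had an unadjusted p under 0.05, with a median log2 difference of 0.12, and Insig2 was at -0.51 (adjusted p = 0.0533).

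The line differences of single genes did not pass the test, and their SE and intervals are from the fit without the block. Insig2 had the lowest, with 10.2 ± 2.85 RPKM in MEF WT and 7.44 ± 1.28 in the libraries labelled MEF Nf2 KO (SD, n = 3 each), a log2 difference of -0.39 ± 0.22 (SE). It was -0.62 without MEF WT B (adjusted p = 0.144) and -0.25 without MEF WT 2018 (adjusted p = 0.999). Scd2 had the highest, with 255 ± 159 and 306 ± 202 RPKM (SD, n = 3 each), a log2 difference of 0.24 ± 0.81 (SE) and an interval from -1.70 to 2.18. Elovl6 differed by 0.22 ± 0.42, Acat2 by 0.21 ± 0.49, Idi1 by 0.21 ± 0.51 and Scd1 by -0.21 ± 0.64 on the log2 scale (SE). The sign of these last differences changed when single libraries were left out, which leaves the marks unequal between the lines. Without MEF WT B the values became -0.48 for Scd2, -0.11 for Elovl6, -0.19 for Acat2 and -0.17 for Idi1, and without the MEF Nf2 KO B library that of Scd1 became 0.42. Without the MEF Nf2 KO A library they were -0.25 for Scd2, -0.16 for Elovl6, -0.17 for Acat2 and -0.28 for Idi1, and without MEF WT A that of Scd1 was 0.12. The median over the 33 genes moved likewise, to -0.25 without MEF WT B or without the MEF Nf2 KO A library and to 0.44 without the MEF Nf2 KO B library. With mark A, B or 2018 left out of both lines, Scd2 was at 0.18, 0.25 and 0.29 and Acat2 at 0.13, 0.22 and 0.27. Elovl6 was then at 0.1, 0.22 and 0.33, Scd1 at -0.37, -0.05 and -0.21, and Idi1 at -0.02, 0.24 and 0.4. Idi1 alone of these changed sign.

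Mark by mark, the difference between the lines varied in sign. In mark A, 30 of the 33 genes were higher in the library labelled MEF Nf2 KO, with a median log2 difference of 0.26, while 47.8% of tested genes were higher there. In mark B, 12 of the 33 were higher and the median was -0.03 (48.0% of tested genes), and in mark 2018 also 12 of the 33, with a median of -0.03 (51.0%). The MEF Nf2 KO A library held the highest of the 6 levels for 30 of the 33 genes, against 21.5% of tested genes. These mark by mark values rest on 1 library a line and have no test. A difference of the line effect between mark B and the other marks was tested as an interaction, and 0 of 11067 genes passed, a share of 0%, with 313 at an unadjusted p under 0.05. With 1 library a line in mark B, this does not show the line effect to be the same across marks. Of the 33, Scap alone had an unadjusted p under 0.05 (0.0327), with an adjusted p of 1.

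**Figure D1:**
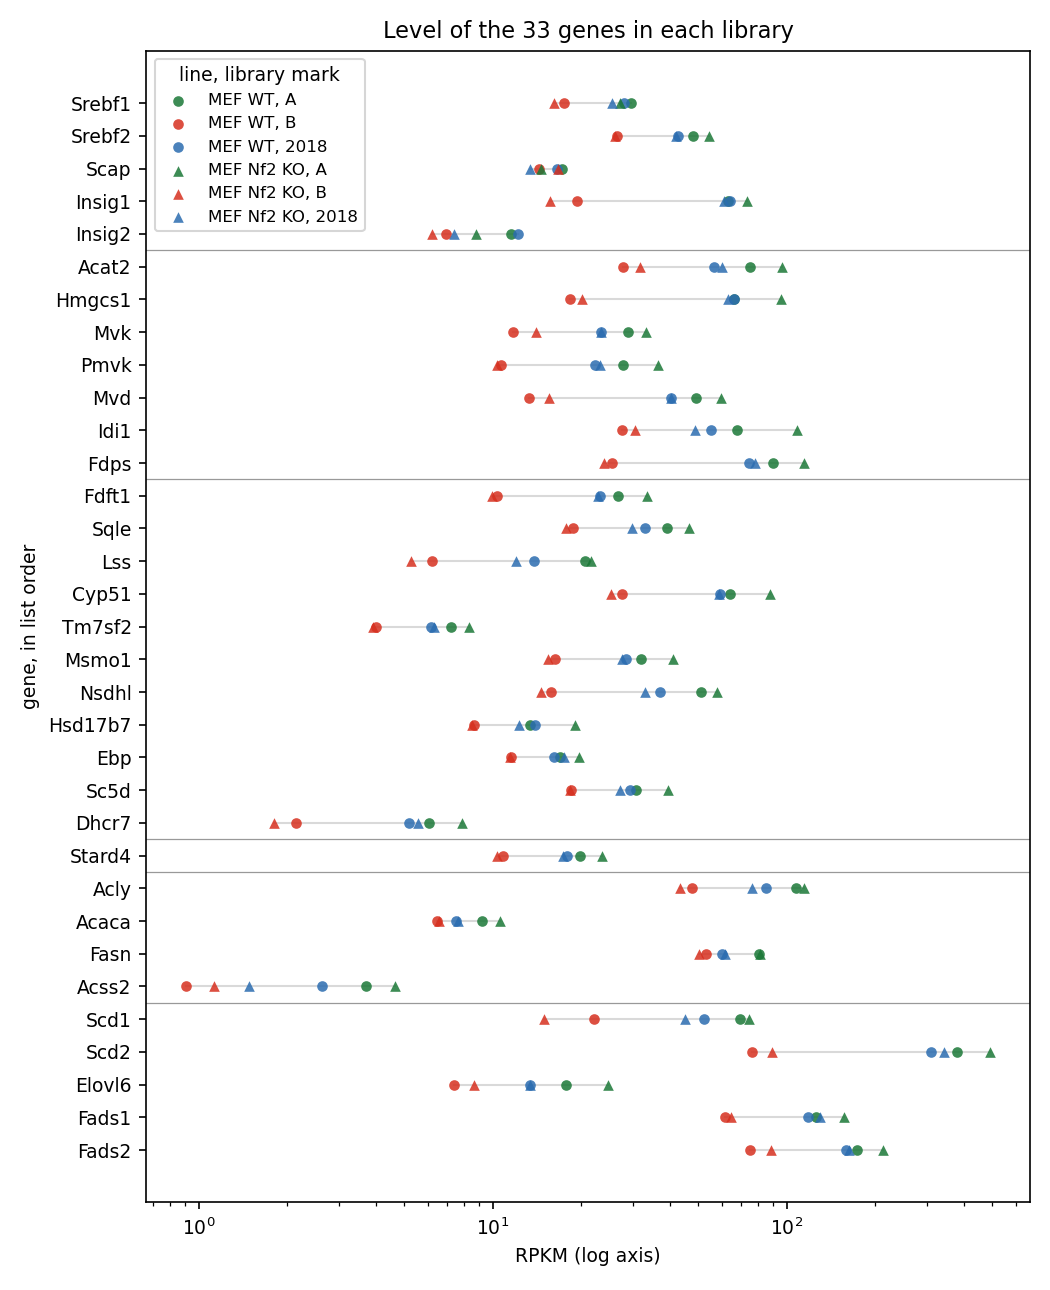
RPKM (log axis) of each of the 33 genes in the 6 libraries, with circles for MEF WT, triangles for MEF Nf2 KO and a colour for each mark. The red B symbols lie left of the other 4 in 32 of the 33 rows, and circles and triangles of each row overlap in range.

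The larger contrast within these libraries was between mark B and marks A and 2018. Over both lines, 29 of the 33 genes were called lower in the B libraries, among them every one of the 18 enzymes of cholesterol synthesis listed. Over the 33 genes the B library stood at a median of 45.2% of the mean of A and 2018 in MEF WT (range 22.1% to 84.7%) and of 45.1% in the line labelled MEF Nf2 KO (21.4% to 118%), against 94.1% and 93.6% over all tested genes. The contrast was fitted with limma with the line as a term, and the adjusted p-values below are from that fit of 2 against 4 libraries. It was looked at because earlier results of the same libraries had shown mark B apart, so these p-values describe the libraries and are no independent evidence. Of the 11067 tested genes, 19.8% were called lower in B and 10.8% higher, against 29 and 0 of the 33 genes. With no filter on low values, which tests all 26231 genes and adjusts over them, 15 of the 33 were called. The 14 that lost the call, 10 of them cholesterol enzymes, kept the same log2 differences and had adjusted p-values of 0.051 to 0.119. Both B libraries lay below all of the other 4 in 32 of the 33 genes, against 29.8% of tested genes. The median log2 difference was -1.03 over the 33 genes and -0.08 over all tested genes.

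**Figure D2:**
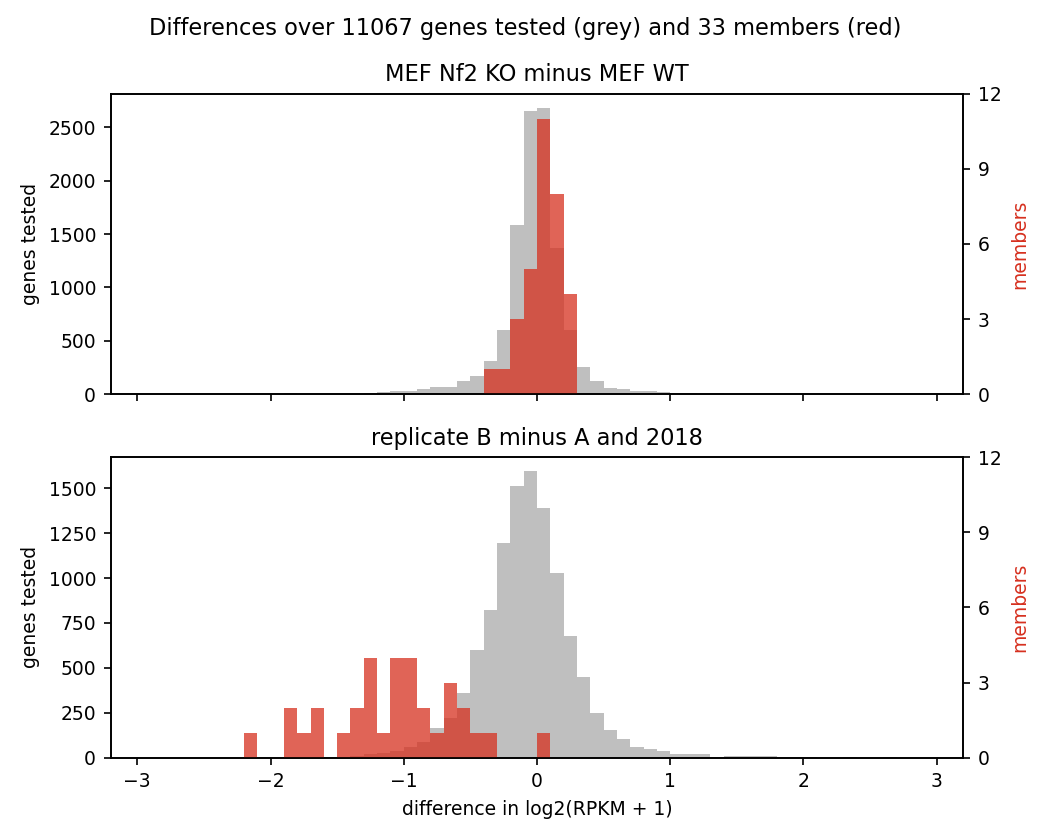
Histograms of the log2(RPKM + 1) difference for all 11067 tested genes (grey, left axis) and the 33 genes (red, right axis), for the lines above and for mark B below. The red bars sit within the grey around 0 for the lines, with a median of 0.08, and to the left of most of the grey for mark B, with a median of -1.03.

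Among the regulators, Srebf1 and Srebf2 encode the SREBP precursors themselves, the first mainly driving fatty acid genes and the second mainly cholesterol genes. Positions in brackets are those of the whole gene in GENCODE vM21 (GRCm38). Srebf1 (chr11:60199089-60222581) was at 29.5, 17.5 and 27.9 RPKM in MEF WT A, B and 2018 and at 27.0, 16.1 and 25.4 RPKM in the line labelled MEF Nf2 KO. The B libraries were the lowest of each line and fell by 0.68 ± 0.07 (SE, adjusted p = 0.00174) on the log2 scale. Srebf2 (chr15:82147181-82205379) was at 48.0, 26.4 and 42.7 RPKM in MEF WT and at 54.2, 26.1 and 41.9 RPKM in the other line. Both B libraries were again below the other 4, and the gene fell by 0.80 ± 0.12 (SE, adjusted p = 0.0041). The Srebf2 level was 1.5 to 2.01 times that of Srebf1, so Srebf2 was the more abundant in every library.

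Insig1 and Insig2 encode the anchor proteins, and Insig1 is itself a target of SREBP. Insig1 (chr5:28071363-28078662) was at 63.2, 19.4 and 64.1 RPKM in MEF WT A, B and 2018 and at 73.1, 15.6 and 61.3 RPKM in the line labelled MEF Nf2 KO. Both B libraries were far below the rest, at 30.5% and 23.3% of the A and 2018 mean, and the log2 difference was -1.85 ± 0.11 (SE, adjusted p = 0.000506). Of the 11067 tested genes, 12 had a difference as low, Insig1 included. Insig2 (chr1:121304353-121332589) was at 11.5, 6.95 and 12.2 RPKM in MEF WT and at 8.75, 6.2 and 7.38 RPKM in the other line. It fell by 0.51 ± 0.11 (SE, adjusted p = 0.0137), and the call was lost without the line term (adjusted p = 0.11) and without the A libraries of both lines (0.079). Without MEF WT B it was -0.33 (adjusted p = 0.172).

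Scap (chr9:110333288-110384950), the escort that carries SREBP to the Golgi, was the exception among the 33 genes. It was at 17.2, 14.3 and 16.5 RPKM in MEF WT A, B and 2018 and at 14.6, 16.6 and 13.4 RPKM in the line labelled MEF Nf2 KO. The B library was the lowest of MEF WT and the highest of the other line. Over both lines the difference was 0.00 ± 0.11 (SE, adjusted p = 0.987), with an interval from -0.26 to 0.26, while the interaction with the line was 0.45 ± 0.17 (SE) and did not pass. Of its exon sequence, 11.3% of 31-base stretches also occur in the gene 5830462I19Rik, so that its reads could be shared.

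The 7 enzymes of the mevalonate steps were all called lower in B, with a median log2 difference of -1.28. Acat2 (chr17:12942890-12960747) starts the route by joining acetyl-CoA units, and Hmgcs1 (chr13:119690379-119708260) adds the next to give HMG-CoA. Hmgcs1 was at 65.9, 18.3 and 66.1 RPKM in MEF WT A, B and 2018 and at 95.4, 20.1 and 62.9 RPKM in the line labelled MEF Nf2 KO. The B pair did not overlap with the other libraries and stood at 27.8% and 25.4% of the A and 2018 mean, a fall of 1.84 ± 0.16 (SE, adjusted p = 0.00105) in the gene whose printed promoter holds the sterol regulatory element. Acat2 was at 27.8 and 31.6 RPKM in the B libraries and at 56.7 to 96.2 RPKM in the others, a fall of 1.22 ± 0.20 (SE, adjusted p = 0.0072). Acat2 shares 43.7% of its 31-base stretches with other genes, nearly all with Acat3, which makes its level uncertain.

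Mvk (chr5:114444269-114460591), Pmvk (chr3:89454541-89469013) and Mvd (chr8:122433601-122443422) phosphorylate mevalonate and then decarboxylate it to isopentenyl diphosphate. Mvd was at 48.9, 13.3 and 40.2 RPKM in MEF WT A, B and 2018 and at 59.7, 15.5 and 40.5 RPKM in the other line. The B libraries stood at 29.9% and 31% of the others, nearly alike in the lines, and the fall was 1.63 ± 0.16 (SE, adjusted p = 0.00155). Mvk was at 11.7 and 14.0 RPKM in the B libraries against 23.3 to 33.2 RPKM, and Pmvk at 10.7 and 10.3 RPKM against 22.2 to 36.4 RPKM. They fell by 1.01 ± 0.15 (SE, adjusted p = 0.00509) and 1.28 ± 0.19 (SE, adjusted p = 0.00519).

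Idi1 (chr13:8885501-8892451) isomerizes isopentenyl diphosphate, and Fdps (chr3:89093588-89101959) condenses the products to farnesyl diphosphate, the branch point toward sterols and prenylated proteins. Fdps was at 89.4, 25.5 and 74.5 RPKM in MEF WT A, B and 2018 and at 114, 23.9 and 78.0 RPKM in the line labelled MEF Nf2 KO. The B levels did not overlap with the others and were 31.1% and 24.9% of them, a fall of 1.79 ± 0.17 (SE, adjusted p = 0.00136). Idi1 was the most scattered of the group outside B, from 48.7 to 108 RPKM, against 27.6 and 30.4 RPKM in B. Its fall of 1.17 ± 0.29 (SE, adjusted p = 0.0262) lost its call without MEF WT A (adjusted p = 0.0578) and without MEF WT 2018 (0.0531). Idi1 and Fdps share 27.1% and 27.9% of their 31-base stretches with other genes, mainly gene models with no assigned function.

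The 11 enzymes from squalene to cholesterol were also all called lower in B, with a median log2 difference of -0.97 and a range from -1.46 to -0.57. Fdft1 (chr14:63145150-63179578) makes squalene, Sqle (chr15:59315077-59331192) adds oxygen to it and Lss (chr10:76531588-76557138) closes it to lanosterol. Fdft1 was at 10.3 and 9.93 RPKM in B against 22.7 to 33.4 RPKM, Sqle at 18.7 and 17.7 RPKM against 29.7 to 46.4 RPKM, and Lss at 6.2 and 5.26 RPKM against 12 to 21.6 RPKM. The falls were 1.29 ± 0.15 (SE, adjusted p = 0.0027) for Fdft1, 0.97 ± 0.17 (adjusted p = 0.00904) for Sqle and 1.38 ± 0.24 (adjusted p = 0.00966) for Lss. Fdft1 shares 31.9% of its stretches with other genes, among them Ctsb, so its level is less certain than that of Sqle, with 0.969%.

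Cyp51 (chr5:4081145-4104746), the lanosterol demethylase, was at 63.9, 27.5 and 59.0 RPKM in MEF WT A, B and 2018 and at 87.3, 25.2 and 58.7 RPKM in the other line. The B libraries were the lowest of each line, with a fall of 1.30 ± 0.16 (SE, adjusted p = 0.0032). The next steps reduce and strip the sterol ring. Tm7sf2 (chr19:6062821-6068373), a sterol reductase, was at 4.0 and 3.91 RPKM in B against 6.16 to 8.30 RPKM. Msmo1 (chr8:64718139-64733792), the methylsterol oxidase, was at 16.3 and 15.4 RPKM against 27.6 to 41.1 RPKM. Nsdhl (chrX:72918557-72958514) and Hsd17b7 (chr1:169949535-169969241) act with Msmo1 to remove the ring methyl groups. Nsdhl was at 15.8 and 14.6 RPKM in B against 33 to 57.7 RPKM, a fall of 1.46 ± 0.23 (SE, adjusted p = 0.00681). This was the largest fall of the 11 on the log2(RPKM + 1) scale. As a share of the mean of A and 2018 over both lines, B was lower for Dhcr7 (31.9%) and Lss (33.7%) than for Nsdhl (34.0%). Hsd17b7 was at 8.66 and 8.49 RPKM in B against 12.3 to 19.1 RPKM. The call of Hsd17b7 was lost without MEF WT 2018 (adjusted p = 0.0503).

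The last steps move, add and remove double bonds. Ebp (chrX:8185329-8193512), the sterol isomerase, was at 16.9, 11.5 and 16.2 RPKM in MEF WT and at 19.6, 11.4 and 17.4 RPKM in the other line. The B pair was tight and the lowest, and the fall of 0.57 ± 0.08 (SE, adjusted p = 0.00423) was the smallest of the 18 cholesterol enzymes. Sc5d (chr9:42251595-42264256), the sterol desaturase, was at 18.5 and 18.3 RPKM in B against 27.1 to 39.3 RPKM. Dhcr7 (chr7:143823145-143848410), the reductase of 7-dehydrocholesterol, was at 6.07, 2.14 and 5.20 RPKM in MEF WT and at 7.88, 1.80 and 5.58 RPKM in the other line. It was the least abundant cholesterol enzyme and fell by 1.26 ± 0.15 (SE, adjusted p = 0.00256). Stard4, which moves cholesterol between membranes and belongs to no enzyme step, was at 10.8 and 10.3 RPKM in B against 17.3 to 23.6 RPKM, a fall of 0.83 ± 0.13 (SE, adjusted p = 0.00497).

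The 4 genes that supply and join fatty acid carbon had a median log2 difference of -0.70. Acly (chr11:100476353-100528000) splits citrate to acetyl-CoA and was at 107, 47.7 and 84.9 RPKM in MEF WT and at 114, 43.3 and 75.8 RPKM in the other line. It alone of the 4 passed the test, with a fall of 1.03 ± 0.17 (SE, adjusted p = 0.00682). Fasn (chr11:120805846-120824547), fatty acid synthase, was at 80.4, 53.1 and 60.2 RPKM in MEF WT and at 81.2, 50.2 and 61.7 RPKM in the other line. The B libraries were the lowest, but the difference of -0.44 ± 0.15 (SE) did not pass (adjusted p = 0.0665), and it did pass with voom (adjusted p = 0.0414). Acaca (chr11:84129672-84401651), acetyl-CoA carboxylase, was at 6.45 and 6.55 RPKM in B against 7.50 to 10.6 RPKM, a difference of -0.36 ± 0.14 (SE, adjusted p = 0.0834). Of its stretches 33.5% occur in other genes, mostly the gene model Gm5182.

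Acss2 (chr2:155517948-155585724), which makes acetyl-CoA from acetate, had the lowest levels of the 33 genes. It was at 3.71, 0.908 and 2.62 RPKM in MEF WT and at 4.66, 1.13 and 1.48 RPKM in the line labelled MEF Nf2 KO. The B libraries were the lowest, at 28.7% and 36.9% of the A and 2018 mean of their line, but the 2018 library labelled MEF Nf2 KO came close to them. The difference of -0.96 ± 0.32 (SE) did not pass (adjusted p = 0.0619), and without that 2018 library it was -1.24 (adjusted p = 0.00271). Fasn and Acaca also passed without it, so that 32 of the 33 genes were then called.

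The 5 genes that desaturate and lengthen fatty acids were all called lower in B, with a median log2 difference of -1.10. Scd1 and Scd2 encode stearoyl-CoA desaturases, which make oleate and palmitoleate, and lie near each other on chromosome 19 (chr19:44394455-44407879 and chr19:44293674-44306864). Scd2 was the most abundant of the 33 genes, at 380, 76.1 and 309 RPKM in MEF WT A, B and 2018 and at 489, 88.8 and 341 RPKM in the line labelled MEF Nf2 KO. The B libraries were at 22.1% and 21.4% of the others, the lowest share of all 33 genes in each line, and Scd2 fell by 2.17 ± 0.16 (SE, adjusted p = 0.000775). Of all tested genes, 5 had a difference as low, Scd2 included. Scd1 was at 69.1, 22.0 and 52.1 RPKM in MEF WT and at 74.3, 14.9 and 45.1 RPKM in the other line. It fell by 1.65 ± 0.23 (SE, adjusted p = 0.0048), and the Scd2 level was 3.47 to 7.57 times that of Scd1. The pair shares little sequence, 8.18% of Scd1 and 6.81% of Scd2 stretches being found in other genes, mainly in their own family.

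Elovl6 (chr3:129532355-129638495), the elongase of palmitate, was at 17.7, 7.38 and 13.4 RPKM in MEF WT and at 24.7, 8.65 and 13.4 RPKM in the other line. Its fall was 0.98 ± 0.23 (SE, adjusted p = 0.0223). Fads1 and Fads2, the delta-5 and delta-6 desaturases of polyunsaturated fatty acids, are neighbours on chromosome 19 (chr19:10182888-10196877 and chr19:10062765-10101746). Fads1 was at 126, 61.4 and 118 RPKM in MEF WT and at 156, 64.4 and 130 RPKM in the other line, and Fads2 at 173, 75.2 and 159 RPKM and at 212, 88.5 and 162 RPKM. Both had B levels close to 50% of the others in each line, and fell by 1.06 ± 0.10 (SE, adjusted p = 0.00136) and 1.10 ± 0.12 (SE, adjusted p = 0.00199).

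**Figure D3:**
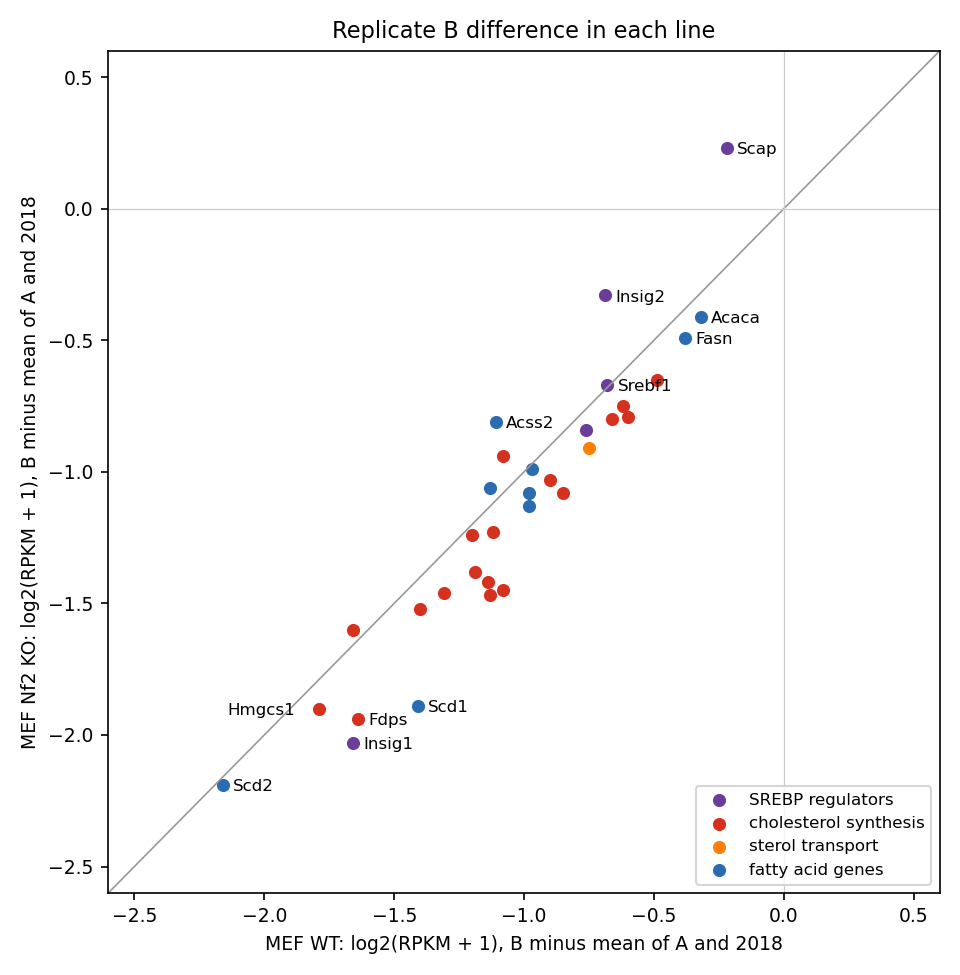
Difference of the B library from the mean of A and 2018 in log2(RPKM + 1), in MEF WT (horizontal axis) and in MEF Nf2 KO (vertical axis), 1 point a gene, coloured by list, with the diagonal of equal values. Scd2 lies at -2.16 and -2.19, and Scap alone is above 0 in a line, at -0.22 in MEF WT and 0.23 in MEF Nf2 KO.

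The B difference of the line labelled MEF Nf2 KO minus that of MEF WT, the interaction, ran from -0.48 to 0.45 on the log2 scale over the 33 genes and passed in none. With a single B library in each line, this does not show the B difference to be the same in both. The lowest of the 6 levels was in the B library labelled MEF Nf2 KO for 21 genes and in MEF WT B for 11. Fits with a single B library take their spread from the other 4 libraries alone and assume that the B library varies like them, so they do not test whether the difference holds in a line. Without MEF WT B, 17 of the 33 genes were called lower (4.63% of tested genes), and without the B library labelled MEF Nf2 KO, 13 of the 33 (3.76%). The median log2 difference was -1.08 in each. Centring every library on its median, which took the calls over all genes from 35.3% higher to 52.5% higher, left 29 of the 33 called lower, against 13.9% of tested genes.

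Marks A and 2018 also differed from each other, by less. Levels in A were above those in 2018 for 29 of the 33 genes in MEF WT (56.3% of tested genes), with a median log2 difference of 0.20. In the line labelled MEF Nf2 KO all 33 were higher in A (53.8% of tested genes), with a median of 0.54 and a range from 0.09 to 1.19. With 1 library on each side these differences have no test. Summed over the 33 genes, the level was 1870, 720 and 1590 RPKM in MEF WT A, B and 2018 and 2290, 735 and 1590 RPKM in the line labelled MEF Nf2 KO. The B sums were 41.7% and 37.8% of the others. A sum is led by its most abundant gene, here Scd2.

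**Figure D4:**
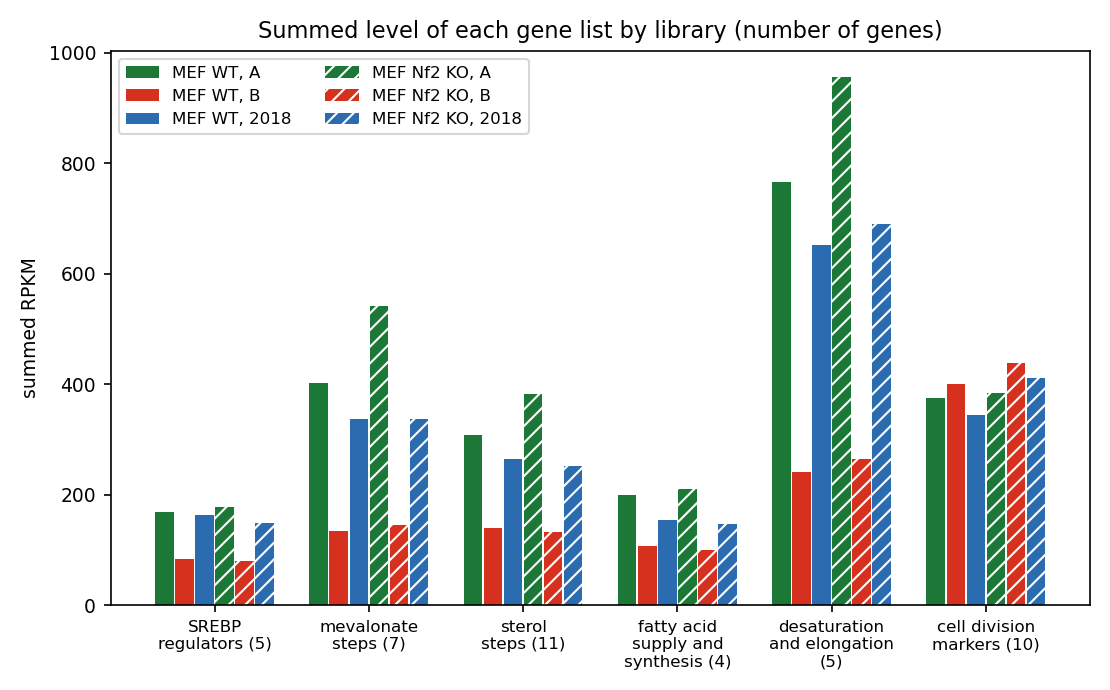
Summed RPKM of each gene list in the 6 libraries, plain bars for MEF WT and hatched bars for MEF Nf2 KO, with the number of genes under each list. The red B bars are the lowest of each line in all 5 pathway lists, and the mevalonate list reads 403, 135 and 338 RPKM in MEF WT A, B and 2018, while the cell division markers are at 345 to 438 RPKM throughout.

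Other genes of these pathways were called in both directions in B, to be read against the 19.8% of tested genes called lower and 10.8% called higher. Of 10 other genes of SREBP processing, such as its proteases and degradation factors, 1 was called lower and 2 higher. Of 9 other genes of isoprenoid and sterol synthesis, 8 were tested, 2 were lower and 2 higher. Of 29 other fatty acid genes, 20 were tested, 7 were lower and 2 higher. Acsl3, which activates long-chain fatty acids, was at 6.17 and 7.39 RPKM in B against 15.8 to 22.2 RPKM, a fall of 1.40 ± 0.14 (SE, adjusted p = 0.00166). Slc25a1, which exports citrate from mitochondria, was at 24.0 and 20.3 RPKM in B against 43.1 to 59.8 RPKM and fell by 1.22 ± 0.12 (SE, adjusted p = 0.00136). Hacd1, a dehydratase of fatty acid elongation, went the other way, at 13.6 and 14.2 RPKM in B against 4.31 to 5.68 RPKM, a rise of 1.26 ± 0.10 (SE, adjusted p = 0.000891). Of 20 genes of sterol uptake, storage, efflux and its LXR control, 15 were tested, 10 were lower and 0 higher. Between the lines none of these 4 lists had a called gene without the replicate block, and with it 1, 0, 2 and 1 genes were called, against 7.53% of tested genes.

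Markers of other cell types and of growth were compared in the same way. Of 8 adipocyte markers 7 were under 1 RPKM in every library, with Adipoq, Cidec, Retn and Cfd at 0 in the A and B libraries of both lines and above 0 in the deeper 2018 libraries, and the list summed to 1.85 to 3.45 RPKM. The last, Pparg, rose in B by 0.45 ± 0.14 (SE, adjusted p = 0.0429). Of 6 macrophage markers 4 were under 1 RPKM in every library and Adgre1 was at 0 in the A and B libraries. The list summed to 8.85 and 9.34 RPKM in B and to 6.71 to 11.9 RPKM in the others. Of 9 fibroblast markers, 5 were called lower in B (19.8% of tested genes) and 0 higher, with sums of 1990 and 1390 RPKM in B against 1620 to 2780 RPKM, and 3 were called lower in the libraries labelled MEF Nf2 KO, against 1.06% of tested genes called in either direction, or 5 with the replicate block, against 7.53%. Col3a1, a collagen gene, fell by 2.37 ± 0.22 (SE, adjusted p = 0.00159) in B, more than any of the 33 genes. Of 10 cell division markers, 2 (Cdk1 and Ccna2) rose in B (10.8% of tested genes) and 0 fell, with sums of 401 and 438 RPKM in B and 345 to 412 RPKM in the others. The inferred depth was 18877196 and 19201430 reads in B and 13397319 and 17998538 reads in A. What mark B stands for is not given in the labels, and the part of depth and of the fibroblast and division markers in these differences was not tested.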

How the data were processed

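RNA of 3 libraries of each line was prepared, sequenced and analysed by GENEWIZ. The authors deposited a single table of values per gene and library, taken here as RPKM, since each library's values sum to 250088 to 263424 and, times the exon length in GENCODE vM21 (26033 genes matched), 86.3% to 87.9% of values of up to 20 reads fell within 0.1 of a whole read, against 11.3% to 12.2% at other step sizes. The labels name mm10. The aligner and counter are not given in the sources used here. As RPKM are not counts, no count model was the main test. Genes reaching 1 RPKM in 3 or more libraries were fitted on log2(RPKM + 1), the study's scale, with limma 3.58.1 in R 4.3.3 (trend and robust settings, two-sided, Benjamini-Hochberg). The study's test was unpaired. Across genes, the deviations of replicates 1, 2 and 3 from the mean of their line correlated between lines at 0.552, 0.819 and 0.516. The main line fit was nevertheless unpaired, and the SE and intervals of the line differences come from it. Only the fit with the replicate block treated the numbers as pairs, and it is given where it changed a count. Groups came from the sample titles, replicates 1, 2 and 3 being the marks A, B and 2018. The 33 genes, the lists and the contrasts were chosen with earlier results of these data known. The genes named are Nf2, the 33 genes, and from the 4 other pathway lists genes called in B with a mean of at least 5 RPKM, at most 5, of which 3 are given and the rest counted. Cell-type and division markers were named after their values were seen. Shared sequence is the share of 31-base stretches of a gene's transcripts found in other genes of GENCODE vM21. Alternatives were other moderation, scaling, pseudocounts, filters, voom on recovered reads, no line term, the block and each library or number left out.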

Additional observations from a re-analysis of the deposited data

How the results depend on the processing

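The 33 genes kept 0 calls between the lines under every alternative run, and their median B difference ran from -1.26 to -0.82. The number of genes called between the lines, 117, became 9 with no filter on low values, 63 with a filter of 5 RPKM and 833 with the replicate block, which added no call among the 33, and 0 (without replicate 1 or 3 of both lines) to 484 (without replicate 2) with libraries or replicate numbers left out. The 3386 genes called for B became 884 with no filter, 1976 with no term for the line and 699 (without MEF Nf2 KO replicate 2) to 3375 (without MEF Nf2 KO replicate 3) with libraries left out, and the 29 of the 33 became 15 with no filter and 13 to 32 with libraries left out. With no filter, 26231 genes instead of 11067 entered both the fit and the adjustment. The cause of these changes was not tested. Higher calls in B were 1195 of 3386, against 1553 of 2965 with quantile normalization and 1698 of 3234 with median centring. Line differences of single genes were recomputed for the 6 largest only, and with libraries left out they changed sign for Acat2 (-0.19 to 0.62), Elovl6 (-0.16 to 0.55), Idi1 (-0.28 to 0.62), Scd1 (-0.70 to 0.42) and Scd2 (-0.48 to 0.97), while Insig2 stayed between -0.62 and -0.25, and the B difference changed sign for Scap (-0.22 to 0.23). Of single B differences under alternatives, 467 kept their direction and side of the threshold, 47 lost the call, 9 gained it and 4, all for Scap, changed sign. The B contrast could not be fitted without replicate 2 in both lines. The number of libraries limits the precision of these values, and the least covered held about 174 reads.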
